A study of Mus musculus with 30 samples.

Results

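Lin28b and 4 genes known as targets of let-7 microRNAs, namely Hmga2, Igf2bp2, Igf2bp3 and Arid3a, were followed through ageing in mouse haematopoietic stem cells (HSCs). They were chosen by gene symbol from the fetal HSC program and were 5 of the 35727 genes in the expression table. Bone marrow HSCs of 30 mice were profiled in bulk by RNA sequencing, with 1 library per mouse. Mice labelled IL1R1 KO, which should lack the type 1 receptor for the inflammatory cytokine interleukin-1, were sampled at 2 months (n = 3), 1 year (n = 4) and 2 years (n = 5). Germ-free mice, described as bowel germ-free, were sampled at 2 months (n = 3) and 1 year (n = 2), with no group at 2 years. Wild-type (WT) mice were sampled at 2 months (n = 4), 1 year (n = 5) and 2 years (n = 4). No treatment was given in the labels, which also state neither strain nor sex. The design asks how HSC transcripts differ with age, and how those differences compare between mice with and without interleukin-1 signalling or a microbiota.

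LIN28B is an RNA-binding protein that binds let-7 precursors and blocks their maturation. Mature let-7 pairs through its seed with sites in the 3′ end of messenger RNAs and lowers their stability and translation, so that low LIN28B goes with active let-7 and repressed let-7 targets. In mice, LIN28B is known from fetal liver HSCs and progenitors, in which it sustains fetal-type lymphoid and erythroid output, and it declines after birth. HMGA2 is a chromatin protein that promotes HSC self-renewal and declines as mouse HSCs mature. IGF2BP2 and IGF2BP3 bind and stabilize messenger RNAs, and ARID3A is a transcription factor that directs fetal-type B lymphopoiesis downstream of LIN28B.

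The mature microRNAs below are shown because the seed is the part that reads the target. Capitals mark bases 2 to 8, and the sequences are RefSeq entries placed on GRCm38.p6. Of 11 mature let-7 family members with an entry, 10 had the seed GAGGUAG, and let-7j had GAGGUAU.
let-7a-5p: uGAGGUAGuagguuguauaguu
let-7b-5p: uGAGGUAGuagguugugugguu
let-7g-5p: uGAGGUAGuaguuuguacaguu
let-7i-5p: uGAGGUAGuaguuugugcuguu
miR-98-5p: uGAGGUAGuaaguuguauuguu
They differed outside the seed only. The let-7 RNAs themselves are short and were not analysed here.

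Each of the 5 genes had exactly 1 match to the 8-base site CTACCTCA, which pairs with the whole seed and ends in an A. The matches, in capitals, lie in the 3′ untranslated region (UTR) of the principal transcript in GENCODE M21 (GRCm38), and 30 bases are shown on the gene's own strand.
Lin28b, chr10:45381015-45381044, minus strand: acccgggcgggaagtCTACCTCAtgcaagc
Hmga2, chr10:120364217-120364246, minus strand: gccgacattcaatttCTACCTCAgcatcag
Igf2bp2, chr16:22059466-22059495, minus strand: acacacaaataaaagCTACCTCAggtgttt
Igf2bp3, chr6:49086780-49086809, minus strand: tgcatttttactcaaCTACCTCAggtattc
Arid3a, chr10:79953895-79953924, plus strand: aaggcaagtttctttCTACCTCAggtcttt
With the 7-base matches CTACCTC and TACCTCA counted too, each position once and the sense strand only, Hmga2 had 7 sites in 2977 bases and Lin28b had 5 in 4445 bases. Arid3a had 4 sites in 3082 bases, Igf2bp2 had 2 in 1784 bases, and Igf2bp3 had 1 in 2119 bases. Among 15211 tested genes with a coding transcript, 3.13% had an 8-base match, 15.2% had a match of any kind and 0.539% had 3 or more. Among the 7487 with a 3′ UTR of at least 1000 bases, these shares were 5.28%, 25.6% and 1.10%. The 4 targets are known as let-7 targets, so their sites are a description of the choice and not a result.

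Values are normalized read counts as deposited, and a difference is in log2(normalized count + 1), with its standard error (SE). Differences were tested with limma across the 16958 genes that reached 10 normalized counts in at least 3 libraries, and a gene was called at an adjusted p under 0.05 after Benjamini-Hochberg correction over all of them. All 5 genes were among those tested. The estimated depth was 15.6 M to 56.3 M reads per library. HSC genes were high in every library, for example Procr at 3210 to 7216, Slamf1 at 1883 to 5249 and Hlf at 5318 to 9309 normalized counts, which fits the labelled cell type. Il1r1 was not lower in the 12 libraries labelled IL1R1 KO (186 to 409, median 262) than in the 5 germ-free (111 to 302, median 277) or the 13 WT libraries (137 to 383, median 216). The labels do not say which stretch of the gene was removed, and a whole-gene value does not show the loss of 1 stretch, so these libraries are called KO-labelled. The library of KO-labelled replicate 1 at 1 year has 2 months in its age label and 1 year in its title and source, and it was kept at 1 year. Mpo, a primary granule gene of myeloid progenitors, exceeded 10000 normalized counts in 6 of the 10 libraries of 2-month mice and in 3 of the 20 older ones.

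Lin28b (ENSMUSG00000063804, chromosome 10, 45376620 to 45486395, minus strand) was present in all 10 libraries of 2-month mice and low or at 0 in most older ones. In KO-labelled HSCs it was 91.7, 46.0 and 71.3 normalized counts at 2 months. It was 7.56, 0, 0 and 0.537 at 1 year, and 0, 0.968, 0.480, 0 and 0 at 2 years. All 9 older KO-labelled libraries lay below the 3 young ones, and 5 of them were at 0. Those at 0 had estimated depths of 19.3 M to 35.3 M reads. Housekeeping genes were far from 0 in every library, with a minimum of 129327 for Actb. Genes that abundant cannot show whether a scarce transcript was missed. In germ-free HSCs Lin28b was 76.7, 105 and 12.7 at 2 months, and 6.06 and 2.39 at 1 year, so the ages did not overlap, although the third young library came close. In WT HSCs it was 104, 102, 34.6 and 181 at 2 months, 34.1, 38.9, 38.8, 0.458 and 12.8 at 1 year, and 10.7, 20.2, 0.599 and 6.91 at 2 years. WT libraries at 2 years were all below those at 2 months, while at 1 year 2 of the 5 lay just above the lowest young library and 1 was near 0. Of the 20 older libraries, 15 were at or below the lowest 2-month value and 5 were above it.

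**Figure D1:**
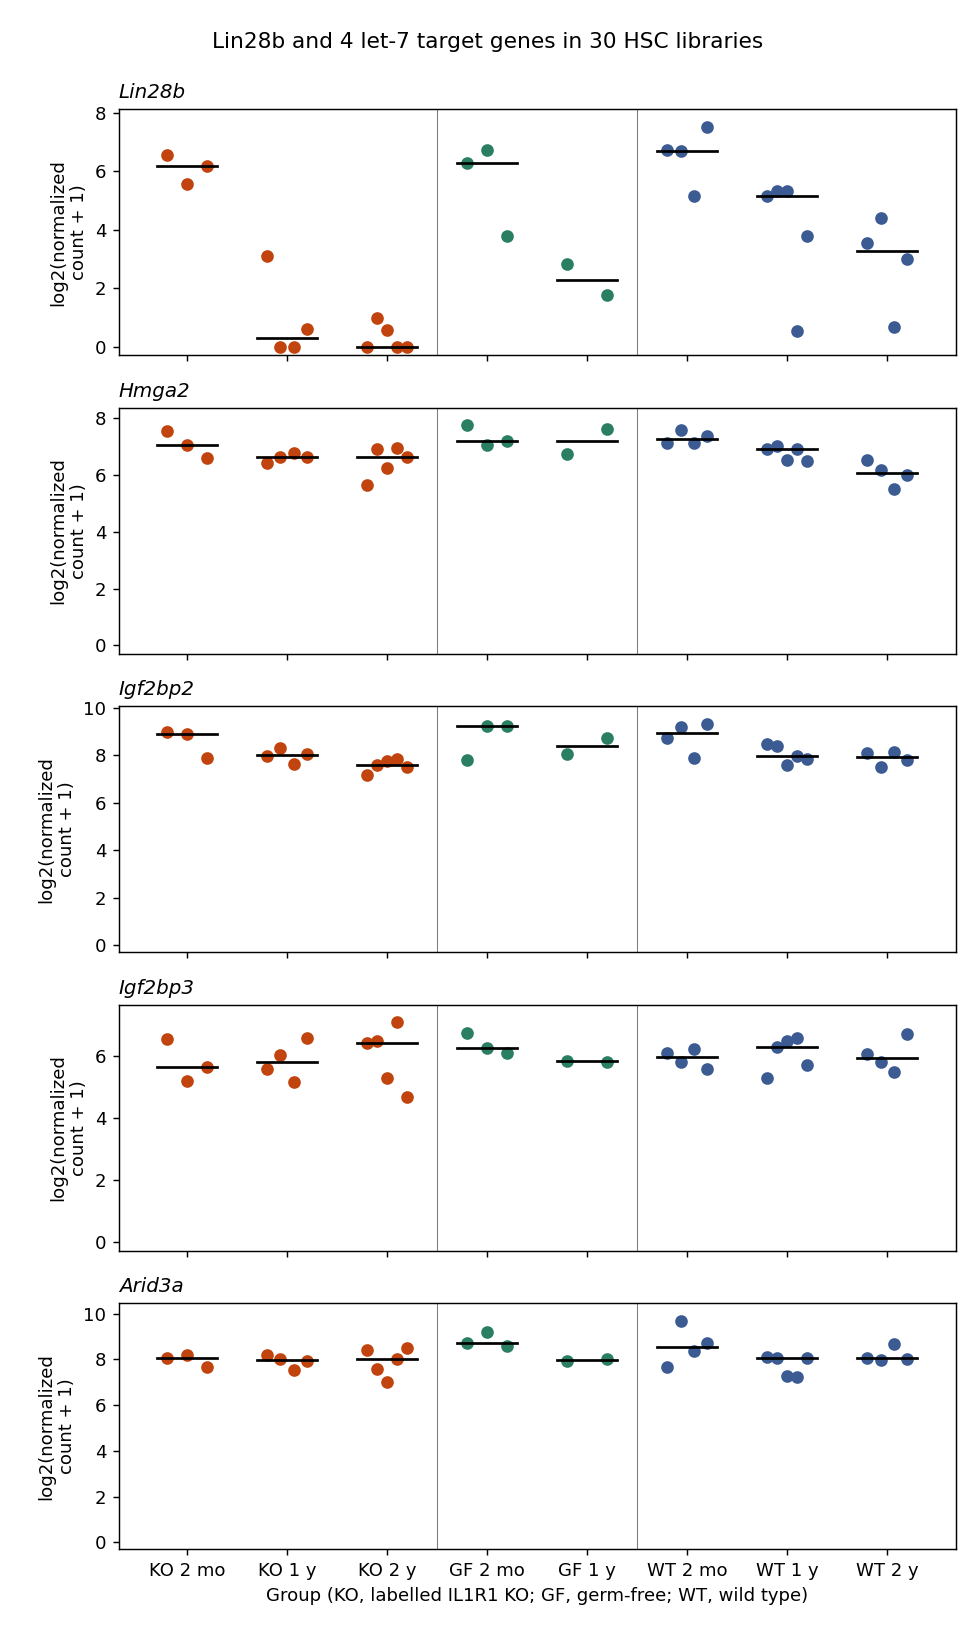
Each point is 1 library, the y axes give log2(normalized count + 1), and the bars are group medians for KO-labelled, germ-free and WT HSCs by age (n = 2 to 5 per group). Lin28b lies between 12.7 and 181 normalized counts in the 2-month libraries and at 0 in 5 KO-labelled libraries of older mice, while Igf2bp3 has wide, overlapping groups.

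By limma, Lin28b fell by 5.16 ± 1.00 (SE) on the log2 scale in KO-labelled HSCs at 1 year against 2 months (adjusted p = 0.00428). At 2 years against 2 months in KO-labelled HSCs it fell by 5.78 ± 0.95 (SE, adjusted p = 0.000189). In WT HSCs it fell by 3.61 ± 0.92 (SE) at 2 years (adjusted p = 0.0165). The difference at 1 year was −2.50 ± 0.88 in WT HSCs (adjusted p = 0.0660) and −3.30 ± 1.19 in germ-free HSCs (adjusted p = 0.154), neither of which passed the threshold. Averaged over the 3 kinds of mice, Lin28b fell by 3.65 ± 0.59 (SE) from 2 months to 1 year (adjusted p = 7.20e-05). Ranked by difference among 16958 genes, it was the 6th lowest in KO-labelled HSCs at 2 years, the 10th lowest at 1 year, and the 20th lowest in WT HSCs at 2 years. Between 1 and 2 years no change was called: −0.62 ± 0.88 in KO-labelled HSCs (adjusted p = 0.955) and −1.12 ± 0.88 in WT HSCs (adjusted p = 1 by limma). The 1-year and 2-year differences share the 2-month libraries of their genotype. Because Lin28b is near 0 in old libraries, the size of these differences depends on the added 1: with 10 added, the difference in KO-labelled HSCs at 2 years was −2.91. The KO-labelled call at 1 year was lost when the fit held the compared groups only (−5.16, adjusted p = 0.0731). The WT call at 2 years was lost with array quality weights (−3.01, adjusted p = 0.102). It was also lost without WT 2-month replicate 4 (−3.28, adjusted p = 0.0623) and without WT 2-year replicate 3 (−2.87, adjusted p = 0.0772). The WT difference at 1 year passed without WT 2-month replicate 3 (−2.95, adjusted p = 0.0455). In bulk libraries, fewer cells with a transcript and less of it per cell cannot be told apart.

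**Figure D2:**
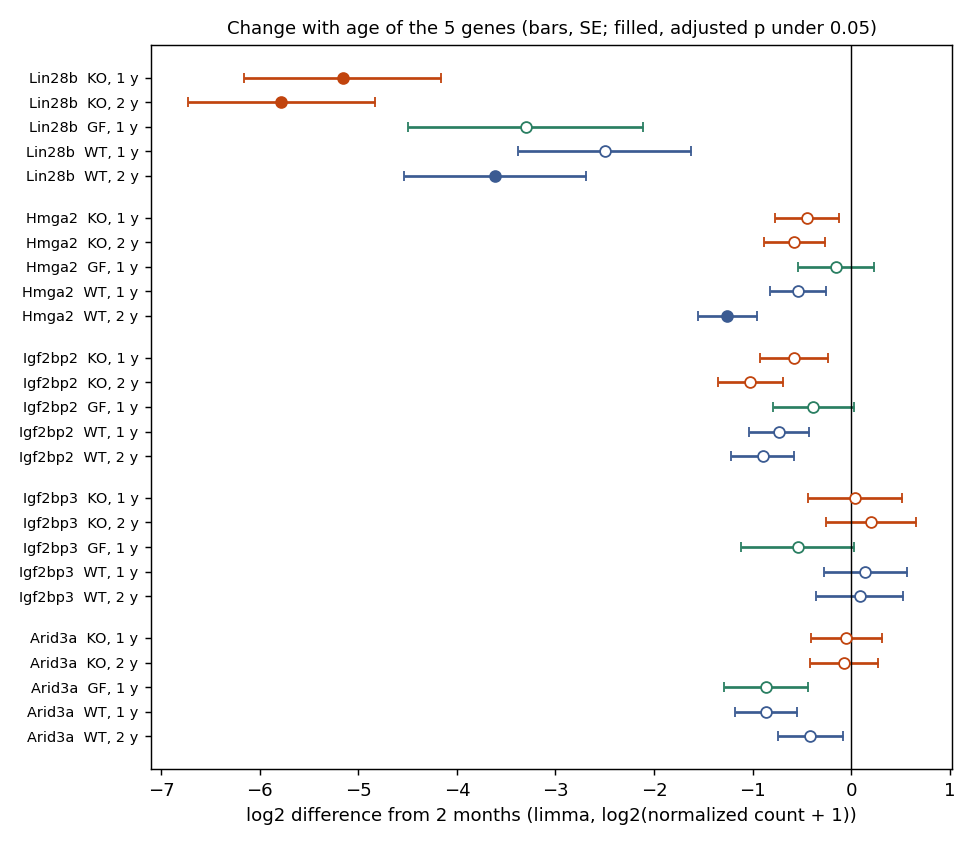
Points are limma differences from 2 months on the log2(normalized count + 1) scale with SE bars, filled where the adjusted p was under 0.05, for each gene in KO-labelled, germ-free and WT HSCs at 1 and 2 years. The Lin28b differences run from −5.78 to −2.50, and only Hmga2 in WT HSCs at 2 years is filled among the 4 other genes.

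Ordered by median normalized count, Lin28b ran from 103 in WT and 76.7 in germ-free and 71.3 in KO-labelled HSCs at 2 months, through 34.1 in WT at 1 year and 8.80 in WT at 2 years, to 4.23 in germ-free HSCs at 1 year. KO-labelled HSCs at 1 year (0.268) and 2 years (0) had the lowest medians, both under the worth of 1 read and so not ordered between themselves. Only KO-labelled HSCs at 2 months and WT HSCs at 1 year, among neighbours in that order, had ranges that did not overlap. At equal age, Lin28b in KO-labelled against WT HSCs differed by −0.43 ± 1.00 (SE) at 2 months (adjusted p = 0.936), by −3.09 ± 0.88 at 1 year (adjusted p = 0.0763) and by −2.59 ± 0.88 at 2 years (adjusted p = 0.168). None was called, but the 1-year difference passed without KO-labelled 1-year replicate 1 (−3.81, adjusted p = 0.0364), the library of disagreeing age labels, and without WT 1-year replicate 4 (−3.96, adjusted p = 0.00775). In germ-free against WT HSCs it differed by −0.93 ± 1.00 at 2 months (adjusted p = 0.839) and by −1.73 ± 1.09 at 1 year (adjusted p = 0.395). Without the young libraries of high Mpo the 2-month difference turned to 0.79 (adjusted p = 0.945). The age change itself was not shown to differ: KO-labelled minus WT gave −2.66 ± 1.33 at 1 year (adjusted p = 0.507) and −2.17 ± 1.33 at 2 years (adjusted p = 0.648). Germ-free minus WT gave −0.80 ± 1.48 at 1 year (adjusted p = 0.891).

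Markers of other cells varied among the young libraries, and some were lower in older ones, while other marker lists, that of HSCs included, held rises. In the mean of the 3 changes to 1 year, 4 of 8 neutrophil, 4 of 7 monocyte and macrophage, 2 of 8 erythroid and 1 of 5 mast cell and basophil genes fell by limma, and 1 erythroid gene rose. Of all tested genes, 6.5% fell in that mean. All neutrophil, all monocyte and macrophage and all mast cell and basophil genes had a negative mean difference, as did 7 of the 8 erythroid genes. In WT HSCs at 1 year alone, 4 neutrophil genes fell, with a list median of −4.80, as did 3 erythroid genes and 1 monocyte and macrophage gene. There 1 erythroid gene rose, and 4.61% of all tested genes fell and 6.12% rose. In WT HSCs at 2 years 0 genes of these 4 lists were called by limma, where 1.63% of tested genes fell and 3.92% rose. In KO-labelled HSCs 0 were called at 1 year and 1, an erythroid gene that fell, at 2 years, and in germ-free HSCs 0 were called. The shares of tested genes that fell were 0.613%, 2.9% and 0.814% in turn, and 1.39%, 5.12% and 1.29% rose. Of 12 HSC surface and identity genes, 6 rose (6.12% of tested genes) and 1 fell (4.61%) in WT HSCs at 1 year. At 2 years 4 of them rose in WT HSCs (3.92%) and 2 in KO-labelled HSCs (5.12%). At 1 year 2 rose in germ-free HSCs (1.29%) and 0 were called in KO-labelled HSCs. The summed normalized counts of 5 primary granule genes at 2 months ran from 10098 to 49440 in KO-labelled, from 4900 to 92126 in germ-free and from 7312 to 116524 in WT HSCs. At 1 year these sums were 10635 to 29409 in KO-labelled, 9666 to 14496 in germ-free and 13397 to 16329 in WT HSCs. At 2 years they were 13055 to 20068 in KO-labelled and 18144 to 39313 in WT HSCs, and none of the 5 genes was at 0 throughout a group. By limma 1 of the 5 rose in WT HSCs at 1 and 2 years, in KO-labelled HSCs at 2 years and in the mean of the 3 changes. The other 4 had negative differences there and were not called, with a list median of −4.17 in WT HSCs at 1 year. In those libraries Mpo was 20.5 to 2045, so most of the sum came from other granule genes. Sums of 8 neutrophil genes ran from 1997 to 13627 in KO-labelled, 1101 to 100119 in germ-free and 5129 to 35744 in WT HSCs at 2 months, and from 40.2 to 38250 over the older groups. Monocyte and macrophage sums were 13530 to 37945 in KO-labelled, 13321 to 55049 in germ-free and 14438 to 57171 in WT HSCs at 2 months, and 12524 to 19041 over the older groups. Mast cell and basophil sums were 124 to 12931 in KO-labelled, 111 to 30389 in germ-free and 152 to 14933 in WT HSCs at 2 months, and 27.0 to 5846 over the older groups. Erythroid sums lay between 48326 and 104979 in all groups. Of 5 tested T and NK genes, 1 rose at each older age in every kind of mouse. Another 1 of them fell in WT HSCs at both ages and in KO-labelled HSCs at 2 years. Of 5 megakaryocyte genes, 1 rose in germ-free HSCs, and 1 rose and 1 fell in KO-labelled HSCs at 2 years. The shares of tested genes for these comparisons are those given above. The part of the neutrophil, monocyte, mast cell and erythroid genes in the Lin28b differences was not tested. Among young libraries Lin28b was 12.7 to 181 (median 84.2) in the 6 with Mpo above 10000 and 34.6 to 105 (median 74.9) in the other 4, so these ranges overlapped. Over all 30 libraries, of mixed age and kind, the Pearson correlation of the log2 levels of Lin28b and Mpo was 0.126. With the mean log2 level of the 5 granule genes as a covariate in limma, Lin28b fell by 5.95 in KO-labelled HSCs at 2 years (adjusted p = 0.000279) and differed by −3.62 in WT HSCs at 2 years (adjusted p = 0.0169). Without the 6 young libraries of high Mpo, which leaves 1 KO-labelled, 1 germ-free and 2 WT libraries at 2 months, the same differences were −5.24 (adjusted p = 0.0625) and −3.03 (adjusted p = 0.195), and the KO-labelled one at 1 year was −4.62 (adjusted p = 0.220).

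**Figure D3:**
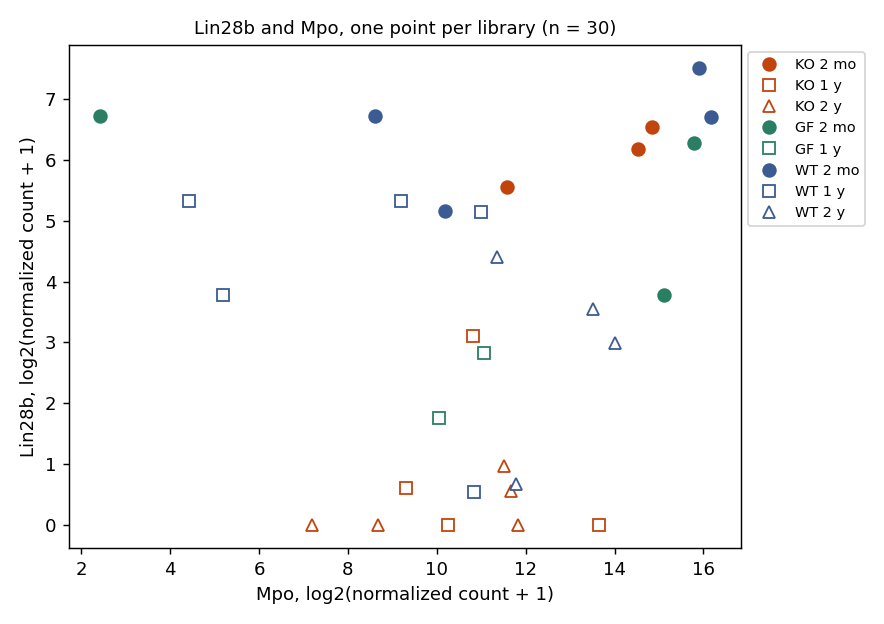
Each point is 1 of the 30 libraries, with Mpo on the x axis and Lin28b on the y axis, both as log2(normalized count + 1), coloured by genotype and shaped by age. Libraries of 2-month mice (filled circles) hold 12.7 to 181 normalized counts of Lin28b across Mpo levels of 4.33 to 73276.

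Cell-cycle genes were lower in older HSCs as well. All 12 listed had a negative difference from 2 months in each of the 5 age comparisons, germ-free HSCs included, and all 12 fell by limma in the mean of the 3 changes to 1 year, where 6.5% of all tested genes fell. Mki67, a marker of cycling cells, differed at 1 year by −0.80 ± 0.18 (SE, adjusted p = 0.0132) in KO-labelled, −0.20 ± 0.21 (adjusted p = 0.719) in germ-free and −1.01 ± 0.15 (adjusted p = 5.38e-05) in WT HSCs by limma. In single comparisons, 3 of the 12 fell in KO-labelled HSCs at 1 year (0.613% of all tested genes) and 5 at 2 years (2.9%). In germ-free HSCs 0 fell by limma (0.814%), with 3 at an unadjusted p under 0.05. In WT HSCs 7 fell at 1 year (4.61%) and 3 at 2 years (1.63%). Their median differences were −0.80 and −0.72 in KO-labelled HSCs at 1 and 2 years, −0.31 in germ-free HSCs, and −0.66 and −0.50 in WT HSCs at 1 and 2 years. Their summed level at 2 months was 39809 to 58933 in KO-labelled, 35096 to 41626 in germ-free and 38131 to 44125 in WT HSCs. At 1 year it was 24864 to 38852 in KO-labelled, 24774 to 33171 in germ-free and 25348 to 28281 in WT HSCs, and at 2 years 25800 to 36179 in KO-labelled and 23413 to 33336 in WT HSCs. Over all 30 libraries, of mixed age and kind, the log2 levels of Lin28b and Mki67 had a Pearson correlation of 0.468. With Mki67 it was 0.467 for Hmga2, 0.595 for Igf2bp2, 0.488 for Arid3a and −0.173 for Igf2bp3. The part of the cell-cycle genes in the differences of the 5 genes was not tested.

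Hmga2 (ENSMUSG00000056758, chromosome 10, 120361275 to 120476469, minus strand) was lower in old WT HSCs, and its other age differences were not called. In KO-labelled HSCs Hmga2 was 185, 132 and 96.2 normalized counts at 2 months, 84.2, 98.3, 110 and 98.5 at 1 year, and 48.8, 121, 75.3, 124 and 98.7 at 2 years. These groups overlapped, and the limma differences were −0.44 ± 0.32 (SE) at 1 year (adjusted p = 0.584) and −0.58 ± 0.31 at 2 years (adjusted p = 0.298). Germ-free HSCs had 215, 133 and 146 at 2 months and 107 and 196 at 1 year (−0.15 ± 0.39, adjusted p = 0.906). Replicate 1 at 1 year was below and replicate 2 within the young range, and without 1-year replicate 1 the sign turned (0.28). In WT HSCs Hmga2 was 141, 190, 141 and 164 at 2 months, 121, 129, 90.7, 119 and 88.5 at 1 year, and 91.1, 71.1, 44.5 and 63.4 at 2 years. Every WT library at 1 or 2 years lay below every one at 2 months. By limma Hmga2 fell by 1.25 ± 0.30 (SE) in WT HSCs at 2 years against 2 months (adjusted p = 0.00949), while the difference at 1 year was −0.54 ± 0.28 (adjusted p = 0.257). The fall at 2 years was not called without the 2 WT young libraries of high Mpo (−1.09, adjusted p = 0.115), or when the fit held the compared groups only (−1.25, adjusted p = 0.0772). The change to 2 years was not shown to differ between KO-labelled and WT HSCs (0.68 ± 0.43, adjusted p = 0.662). Hmga2 shares 140 of its 6772 exon bases with the antisense gene 1700006J14Rik, and the library method does not keep strand.

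Igf2bp2 (ENSMUSG00000033581, chromosome 16, 22059009 to 22163299, minus strand) had lower medians at the older ages in all 3 kinds of mice, with no call at the threshold. KO-labelled HSCs had 500, 476 and 237 normalized counts at 2 months, 253, 321, 200 and 265 at 1 year, and 142, 189, 214, 231 and 179 at 2 years. The 5 KO-labelled libraries at 2 years were all below the young ones, by a narrow margin for the lowest young library. By limma the difference at 2 years was −1.02 ± 0.33 (SE, adjusted p = 0.0531), and it was −0.58 ± 0.35 at 1 year (adjusted p = 0.478). The 2-year difference in KO-labelled HSCs passed without KO-labelled 2-month replicate 3 (−1.37, adjusted p = 0.0180). It also passed under quantile normalization (−1.05, adjusted p = 0.0461), median centring (−1.05, adjusted p = 0.0451), array quality weights (−1.10, adjusted p = 0.0281) and a fit of the compared groups alone (−1.02, adjusted p = 0.0457). Germ-free HSCs had 224, 608 and 606 at 2 months and 264 and 420 at 1 year (−0.38 ± 0.41, adjusted p = 0.730). WT HSCs had 418, 589, 238 and 641 at 2 months, 359, 338, 191, 250 and 227 at 1 year, and 270, 184, 284 and 220 at 2 years. The WT differences were −0.73 ± 0.30 at 1 year (adjusted p = 0.134) and −0.90 ± 0.32 at 2 years (adjusted p = 0.104). In each kind of mouse 1 young library, at 224 to 238 normalized counts, lay within or near the older range. Without the WT one, replicate 3, both WT differences passed (−1.02, adjusted p = 0.0308, at 1 year, and −1.19, adjusted p = 0.0246, at 2 years). The mean of the 3 changes to 1 year was −0.56 ± 0.21 (adjusted p = 0.0660), and it passed without any 1 of these 3 young libraries (−0.72 to −0.66, adjusted p = 0.0113 to 0.0250). These 3 were the lowest young libraries of their kind, so leaving 1 of them out enlarges the fall. With others left out, the limma adjusted p reached 0.364 and 0.296 in WT HSCs at 1 and 2 years. It reached 0.258 in KO-labelled HSCs at 2 years, and the mean of the 3 changes reached −0.45. WT 2-month replicate 3 also held the lowest young Lin28b of its kind. In the other 2 kinds of mice the libraries differed. The lowest young Lin28b was in germ-free replicate 3 and KO-labelled replicate 2, and the lowest young Igf2bp2 in germ-free replicate 1 and KO-labelled replicate 3.

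Igf2bp3 (ENSMUSG00000029814, chromosome 6, 49085223 to 49214957, minus strand), the paralog of Igf2bp2, showed no called difference. KO-labelled HSCs had 93.0, 35.5 and 48.4 normalized counts at 2 months, 46.8, 64.6, 34.3 and 94.8 at 1 year, and 83.7, 89.2, 37.7, 135 and 24.7 at 2 years. Germ-free HSCs had 107, 75.2 and 67.5 at 2 months and 56.7 and 54.8 at 1 year, without overlap. WT HSCs had 67.0, 55.3, 73.0 and 46.5 at 2 months, 37.8, 77.4, 87.7, 94.0 and 51.6 at 1 year, and 65.4, 54.8, 43.4 and 103 at 2 years. Groups overlapped at all ages in KO-labelled and in WT HSCs. The limma differences from 2 months were 0.04 ± 0.48 and 0.20 ± 0.46 in KO-labelled HSCs at 1 and 2 years, −0.54 ± 0.57 in germ-free HSCs, and 0.14 ± 0.42 and 0.09 ± 0.44 in WT HSCs, with adjusted p of 0.725 to 0.987. Igf2bp3 shares 1529 of its 8159 exon bases with the antisense gene Malsu1, which had 513 to 868 normalized counts in these libraries. Without strand, part of the Igf2bp3 value may come from Malsu1, so its level is uncertain.

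Arid3a (ENSMUSG00000019564, chromosome 10, 79927043 to 79955018, plus strand) had no called age difference. KO-labelled HSCs had 268, 290 and 199 normalized counts at 2 months, 293, 256, 186 and 240 at 1 year, and 333, 191, 129, 256 and 357 at 2 years. These groups overlapped throughout, with limma differences of −0.05 ± 0.36 (adjusted p = 0.980) at 1 year and −0.07 ± 0.34 (adjusted p = 0.945) at 2 years. Germ-free HSCs had 415, 579 and 382 at 2 months and 239 and 257 at 1 year, without overlap (−0.86 ± 0.43, adjusted p = 0.338). WT HSCs had 199, 821, 326 and 420 at 2 months, 276, 263, 155, 148 and 262 at 1 year, and 269, 253, 401 and 260 at 2 years. The young WT libraries spread the most, and the highest was one of high Mpo. The WT differences were −0.86 ± 0.31 (adjusted p = 0.0801) at 1 year and −0.41 ± 0.33 (adjusted p = 0.567) at 2 years. The WT difference at 1 year passed without WT 2-month replicate 1 (−1.18, adjusted p = 0.0141), and it was −0.26 (adjusted p = 0.765) without the WT young libraries of high Mpo. The mean of the 3 changes to 1 year was −0.59 ± 0.21 (adjusted p = 0.0630), and it too passed without WT 2-month replicate 1 (−0.70, adjusted p = 0.0174). That library held the lowest young WT Arid3a, so leaving it out enlarges the fall. With each library left out in turn, the WT difference at 1 year ran up to −0.50, with limma adjusted p up to 0.366. The mean of the 3 changes ran up to −0.47.

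Counted together, 1 of the 5 genes was called lower in KO-labelled HSCs at 1 year, where 0.613% of all tested genes were. In KO-labelled HSCs at 2 years it was 1 of 5, against 2.9% of tested genes. None of the 5 was called by limma in germ-free HSCs at 1 year, where 0.814% of tested genes were lower, and 1 had an unadjusted p under 0.05. In WT HSCs none was called at 1 year, where 4.61% of tested genes were lower, and 3 had an unadjusted p under 0.05. In WT HSCs at 2 years 2 were called lower, against 1.63% of tested genes. For the mean of the 3 changes to 1 year it was 1 of 5, against 6.5%. No member was called higher in any comparison. The median difference of the 5 genes was −0.44 and −0.58 in KO-labelled HSCs at 1 and 2 years, −0.54 in germ-free HSCs, and −0.73 and −0.90 in WT HSCs at 1 and 2 years, where the medians of all tested genes lay between 0.00205 and 0.0142. Groups that did not overlap, with the older one lower, were found for Lin28b in KO-labelled HSCs at 1 year (5.34% of tested genes) and for Lin28b and Igf2bp2 in KO-labelled HSCs at 2 years (7.44%). They were found for Lin28b, Igf2bp3 and Arid3a in germ-free HSCs (12.6%), for Hmga2 in WT HSCs at 1 year (5.62%) and for Lin28b and Hmga2 in WT HSCs at 2 years (3.82%). Between 1 and 2 years 0 of the 5 passed, where 0.177% of tested genes were called in KO-labelled and 0.0118% in WT HSCs, and Hmga2 in WT HSCs alone had an unadjusted p under 0.05 in limma. In KO-labelled against WT HSCs, 0 of the 5 passed at 2 months, 1 year or 2 years, where 0.407%, 1.3% and 1.42% of tested genes were called. Lin28b alone had an unadjusted p under 0.05 there, at 1 and at 2 years. In germ-free against WT HSCs, 0 of the 5 passed at 2 months (0.601% of tested genes) or 1 year (4.96%), and none had an unadjusted p under 0.05 in limma. For the differences between age changes, 0 of the 5 passed for KO-labelled minus WT at 1 year (0.0354%) and 2 years (0.395%) or for germ-free minus WT (0.0%), and none had an unadjusted p under 0.05.

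The rest of the LIN28 and let-7 machinery was measured through 25 listed genes, of which 24 were tested. Lin28a, the paralog of Lin28b known from embryonic cells, was at 0 in 20 of the 30 libraries. It reached 51.2 normalized counts in germ-free 2-month replicate 3 and 102 in WT 2-year replicate 3 and stayed at or under 18.4 in the others, and none of its comparisons was called. Exons of Lin28a overlap the antisense gene Gm13061. Without strand, part of the Lin28a value may come from that gene. In KO-labelled HSCs 0 of the 24 genes were called by limma at 1 year, with 7 at an unadjusted p under 0.05. Of all tested genes, 1.39% rose and 0.613% fell there, while their share at an unadjusted p under 0.05 was not counted. At 2 years Zc3h12a, an RNase that cuts inflammatory transcripts and microRNA precursors, rose by 1.63 ± 0.40 (SE, adjusted p = 0.00910), and Syncrip, an RNA-binding protein, fell by 0.38. These were 1 rise and 1 fall among 24 genes, where 5.12% of tested genes rose and 2.9% fell. In germ-free HSCs 0 were called with age (1.29% of tested genes rose and 0.814% fell), with 4 at an unadjusted p under 0.05. Ago2, the Argonaute that cuts and holds guide-paired targets, fell in WT HSCs by 0.67 ± 0.16 (SE) at 1 year (adjusted p = 0.00531 by limma) and by 0.62 ± 0.17 at 2 years (adjusted p = 0.0232). It averaged 4674 ± 732 normalized counts (SD, n = 4) in WT HSCs at 2 months, 2935 ± 421 (n = 5) at 1 year and 3045 ± 508 (n = 4) at 2 years. The other genes called lower in WT HSCs were Msi2, an RNA-binding protein of HSCs, at 1 year (−0.45) and Hnrnpa1, a splicing factor known from human cells to bind let-7 precursors, at 2 years (−0.31). With Ago2, 2 of the 24 genes fell at each age in WT HSCs, where 4.61% and 1.63% of tested genes fell. The median difference of the list was 0.12 and 0.01 in KO-labelled HSCs at 1 and 2 years, 0.03 in germ-free HSCs, and −0.15 at both ages in WT HSCs. Against WT, Ddx5, an RNA helicase that assists DROSHA, was higher in KO-labelled HSCs at 1 year (0.40) and 2 years (0.38), and its paralog Ddx17 was higher in germ-free HSCs at 1 year (0.51). These were the only calls of the list against WT, where 1.3%, 1.42% and 4.96% of tested genes were called in turn.

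Other known let-7 targets did not move one way. Of 23 listed, 22 were tested, and Igf2bp1, the third gene of its family, stayed at or under 5.00 normalized counts. In KO-labelled HSCs at 1 year 2 rose and none fell, where 1.39% of all tested genes rose and 0.613% fell, and at 2 years 5 rose and 1 fell, where 5.12% rose and 2.9% fell. Hk2, a glycolytic hexokinase, averaged 1057 ± 260 normalized counts (SD, n = 3) in KO-labelled HSCs at 2 months, 2100 ± 181 (n = 4) at 1 year and 2227 ± 316 (n = 5) at 2 years. It rose by 1.01 ± 0.16 (SE, adjusted p = 0.000650 by limma) and by 1.09 ± 0.16 (adjusted p = 3.06e-05) at these ages. Myc, a growth-promoting transcription factor, also rose in KO-labelled HSCs, by 0.56 at 1 year and 0.94 ± 0.14 at 2 years (adjusted p = 5.73e-05). Its change to 2 years was larger in KO-labelled than in WT HSCs by 0.92 ± 0.20 (SE, adjusted p = 0.0335), the only member of the list with such a call, where 0.395% of tested genes were called. In germ-free HSCs none rose and 2 fell, where 1.29% of tested genes rose and 0.814% fell. There Hmga1, the paralog of Hmga2, fell by 0.80 ± 0.21 (adjusted p = 0.0444) and Ccnd2, a G1 cyclin, by 0.42. With only the compared groups in the fit, 15 genes were called in germ-free HSCs, against 356. Whether Hmga1 and Ccnd2 were among the 15 was not checked. In WT HSCs 3 rose and 2 fell at 1 year, where 6.12% of tested genes rose and 4.61% fell, and 2 rose and 1 fell at 2 years, where 3.92% rose and 1.63% fell. Hmga1 averaged 5680 ± 1488 normalized counts (SD, n = 4) in WT HSCs at 2 months, 3246 ± 624 (n = 5) at 1 year and 2804 ± 388 (n = 4) at 2 years. It fell by 0.79 ± 0.16 (SE, adjusted p = 0.00102) at 1 year and by 0.99 ± 0.16 (adjusted p = 0.000226) at 2 years, beside the fall of Hmga2 in the same libraries at 2 years. Ccnd1, the G1 cyclin D1, went the other way in WT HSCs, up by 0.90 ± 0.15 at 1 year (adjusted p = 0.000149) and by 0.64 ± 0.16 at 2 years (adjusted p = 0.0121). Mycn, a relative of Myc, rose in WT HSCs at 1 year (0.72) and 2 years (0.62) and in KO-labelled HSCs at 2 years (0.64). At 1 year Ccnd1 was lower in germ-free than in WT HSCs (−1.39 ± 0.19, adjusted p = 0.000119), and Ccnd2 (−0.50), Mycn (−0.89) and Cbx2 (−0.95) were lower there as well. The germ-free side of these calls rests on 2 libraries, which had Ccnd1 at 738 and 1527 normalized counts. The list's median difference was 0.03 and 0.00 in KO-labelled HSCs at 1 and 2 years, −0.09 in germ-free HSCs, and −0.05 and 0.12 in WT HSCs at 1 and 2 years.

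**Figure D4:**
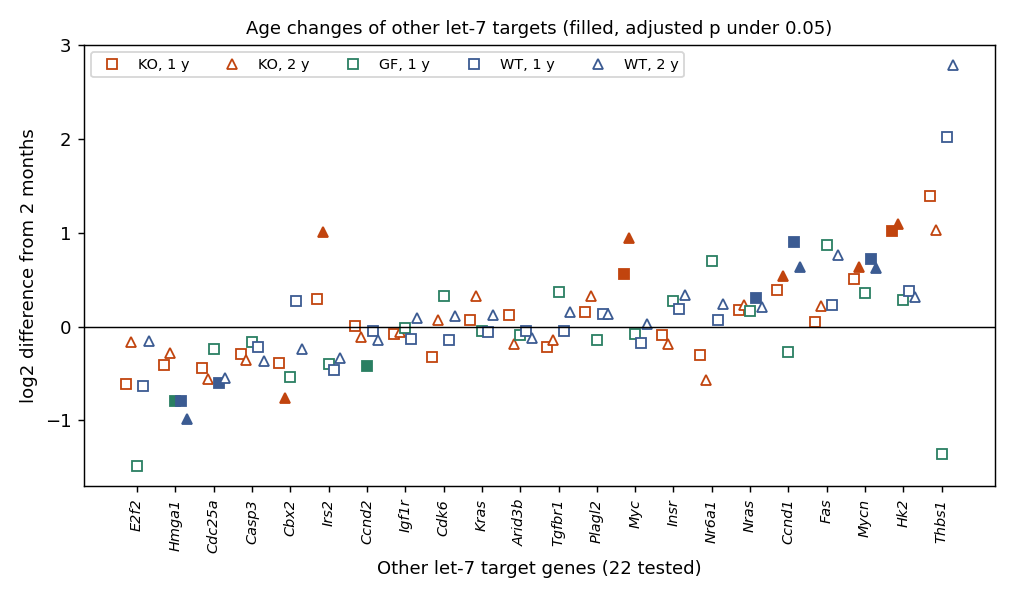
Symbols are limma log2 differences from 2 months of 22 other let-7 targets in KO-labelled, germ-free and WT HSCs, squares for 1 year and triangles for 2 years, filled where the adjusted p was under 0.05. Hmga1 is filled at the low end, at −0.99 in WT HSCs at 2 years, and Hk2 at the high end, at 1.09 in KO-labelled HSCs at 2 years.

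All tested genes with an 8-base let-7 match, 476 in number, had a median difference of 0.04 and 0.02 in KO-labelled HSCs at 1 and 2 years, −0.01 in germ-free HSCs, and 0.05 and 0.02 in WT HSCs at 1 and 2 years. Over all 15211 genes with a coding transcript these medians lay between 0.00277 and 0.0110.

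A further list held 12 symbols of fetal blood and fetal HSC genes. Of these, 8 were tested and H19 was not analysed here. The embryonic globins Hbb-bh1, Hbb-y and Hba-x stayed at or under 2.15 normalized counts in every library. Ezh2, the histone methyltransferase of Polycomb complex PRC2, averaged 1924 ± 96 normalized counts (SD, n = 3) in KO-labelled HSCs at 2 months, 1230 ± 275 (n = 4) at 1 year and 1412 ± 130 (n = 5) at 2 years. It fell in these cells by 0.67 ± 0.16 (SE, adjusted p = 0.0254 by limma) at 1 year, and by 0.44 ± 0.10 (adjusted p = 0.00187) in the mean of the 3 changes. Dlk1, an imprinted fetal gene, rose in WT HSCs at 2 years by 1.52 ± 0.45 (adjusted p = 0.0447). At 2 years it was lower in KO-labelled HSCs, at 37.9 ± 12.7 normalized counts (SD, n = 5), than in WT HSCs, at 126 ± 48 (n = 4), a difference of −1.68 ± 0.43 on the log2 scale (SE, adjusted p = 0.0439). At 1 year Dlk1 was also lower in germ-free than in WT HSCs (−2.35 ± 0.54, adjusted p = 0.0107), while Suz12, another PRC2 subunit, was higher there (0.81, adjusted p = 0.0285). The germ-free side of both rests on 2 libraries.

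The genes whose log2 levels followed Lin28b most closely over the 30 libraries, of 14628 considered, were Fam162a (Pearson r = 0.772), Cisd1 (0.766), Yeats4 (0.752), Lsm2 (0.735) and Dynll1 (0.731). For Hmga2 they were Cat (0.767), Nudcd2 (0.741) and Anxa6 (0.733). For Igf2bp2 they were Ska2 (0.823), Rfc1 (0.805) and Pola1 (0.803), of which the last 2 encode a replication factor C subunit and the catalytic subunit of DNA polymerase alpha. For Igf2bp3 the highest values were lower, at 0.566 for Zar1, 0.536 for Chadl and 0.511 for Rpl8. For Arid3a they were Ighv1-81 (0.674), Hivep2 (0.662) and Mgat5 (0.655). These values describe likeness over libraries that share age groups and sorting, and they were picked as the highest among all genes considered.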

How the data were processed

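HSCs were sorted, 4000 to 5000 cells per sample, into extraction buffer, and unstranded Smart-seq2 libraries tagmented with Nextera XT were sequenced as single-end 100-base reads, per the labels' protocols. FastQC 0.11.9, cutadapt 2.10, Salmon, DESeq2 1.26.0 and GRCm38/mm10 are named in the submitters' processing notes. The authors deposited 1 table of normalized read counts per gene, a non-negative signal that is not whole, with 10384 genes at 0 in all libraries. The commonest low value of a library, 0.523 to 1.78 normalized counts, was taken as the worth of 1 read, and depth was estimated from it. Only 10.9% to 18.4% of values under 20 were whole multiples of it within 0.001, so reads were not recovered and no count model was used.

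Gene symbols were matched to 35422 of 35727 IDs. The planned limma (3.58.1, R 4.3.3) fit was made on log2(value + 1) with a mean for each of 8 groups over all 30 libraries, trend and robust empirical Bayes, two-sided, for 16 comparisons, and was tested on simulated data. No libraries were identical. The 5 genes, the gene lists and the Mpo limit of 10000 were chosen with earlier results of these data known. Named genes are the 5 and Lin28a in every comparison, up to 4 called members of each list per comparison with the smallest p, and the genes most like each member (Gm and Rik names left out). Sites were searched with Python 3.11.15 in GENCODE M21. Alternatives covered the pseudocount, filter, scaling, fit, weights, replicate block, the disagreeing age label, high-Mpo libraries, a granule covariate and each replicate left out.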

Additional observations from a re-analysis of the deposited data

Results flagged for a closer look

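Arid3a in WT 2-year replicate 3, at 401 normalized counts, stood far above the other 3 WT libraries at 2 years, which were 253 to 269. On the log2(normalized count + 1) scale, its gap to the nearest was 0.87 of the group's range, above Dixon's critical value of 0.829 for 4 samples. Chance flags about 1 in 20 groups, and this was 1 of 25 groups of 4 or 5 libraries tested over the 5 genes. The same library had the highest Lin28a, at 102 normalized counts, and the lowest Lin28b of its group, at 0.599.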

How the results depend on the processing

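No called difference reversed its sign under any of 12 settings or when any of the 30 libraries was left out. The Lin28b falls in KO-labelled HSCs lost the call at 1 year with only the compared groups in the fit (−5.16, adjusted p = 0.0731), and at both ages without the 6 young libraries of high Mpo (−4.62 at 1 year and −5.24 at 2 years). The WT fall at 2 years lost it with array quality weights (−3.01, adjusted p = 0.102) and without the high-Mpo libraries (−3.03). The WT difference at 1 year passed with 10 as the pseudocount (−1.76, adjusted p = 0.0115), and germ-free against WT at 2 months changed direction to 0.79 without the high-Mpo libraries. With each library left out in turn, Lin28b ran from −2.95 to −1.63 in WT HSCs at 1 year, from −4.12 to −2.87 in WT HSCs at 2 years, and from −3.96 to −2.77 for KO-labelled against WT HSCs at 1 year. The cause was not tested. Over all settings, 326 Lin28b values kept their side of the threshold, 4 became called and 7 lost the call; for Igf2bp2 and Arid3a 10 and 6 became called.

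Deviations of same-numbered libraries had a median correlation of 0.00542 over 88 pairs (−0.11 to 0.165), against −0.000866 over 302 other pairs (−0.179 to 0.175). Of the 30 libraries, 11 were closest to one of their own number, and the number due to chance was not computed. These values show no clear pairing by number, but they cannot settle whether libraries were paired or shared a batch. With a replicate block the Lin28b differences were −4.95 and −5.50 in KO-labelled HSCs at 1 and 2 years and −3.61 in WT HSCs at 2 years, all called, and Arid3a passed in WT HSCs at 1 year (−0.97, adjusted p = 0.0474). With the disagreeing library placed at 2 months, Lin28b fell by 5.13 at 1 year (adjusted p = 0.0270) in KO-labelled HSCs. Over all tested genes the block moved the calls at 1 year to 141, against 221, for KO-labelled against WT HSCs and to 418, against 841, for germ-free against WT HSCs.

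Counts of called genes depended on the libraries in the fit. With only the compared groups, 47 genes were called, against 340, in KO-labelled HSCs at 1 year, 15, against 356, in germ-free HSCs, and 350, against 941, in WT HSCs at 2 years. Without the young libraries of high Mpo these were 162 and 461, against 340 and 1360, in KO-labelled HSCs at 1 and 2 years and 988, against 1818, in WT HSCs at 1 year. With the disagreeing library placed at 2 months they were 58 and 710 in KO-labelled HSCs at 1 and 2 years. The same placement gave 0 genes, against 67, for the change to 2 years in KO-labelled minus WT HSCs. With array quality weights 133 were called in germ-free HSCs, and 474, against 221, and 535, against 241, for KO-labelled against WT HSCs at 1 and 2 years. With only the compared groups Lin28b fell under the filter for KO-labelled HSCs at 2 years against 1 year and against WT at 2 years, so no value was given. Values of Lin28b under about 1 normalized count are near the worth of 1 read, so libraries and groups at such levels cannot be ordered among themselves.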
